A study of Mus musculus with 8 samples.

Results

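The 9 enzymes described here carry out most steps of the tricarboxylic acid cycle in the mitochondrial matrix. They were chosen by symbol, as Cs, Idh3a, Idh3b, Idh2, Ogdh, Sucla2, Suclg1, Fh1 and Mdh2, among the 23432 gene symbols counted in each of 8 bulk RNA-seq libraries, and all 9 were present and passed the filter on low counts in both experiments. At E16.5, late in embryonic development, the libraries came from H2BGFP+ epithelial cells, in which the Krt14 promoter drives a GFP-tagged histone H2B, sorted by FACS from embryonic skin, with 2 control libraries and 2 MOF cKO libraries (genotype MOFfl/fl/K14Cre). At P0.5, on the day of birth, they came from total epidermal cells of pups, with 2 control libraries and 2 Kansl1 cKO libraries (genotype Kansl1fl/fl/K14Cre), after the epidermis had been lifted off the dermis by Dispase. MOF, encoded by Kat8, is an acetyltransferase for histone H4 lysine 16, and Kansl1 is a subunit of its NSL complex. In both cKO groups Cre is driven by the Krt14 promoter, so deletion is limited to Krt14-expressing epithelium and its descendants. The mice were of mixed C57Bl/6J and CD-1 background, and the controls were wild-type or heterozygous littermates, whose exact alleles are not given for each library. No label says whether the 2 libraries of a group came from separate animals, so the p-values below measure the spread between libraries.

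The tricarboxylic acid cycle oxidizes acetyl-CoA to carbon dioxide and passes the electrons, as NADH and FADH2, to the respiratory chain. Citrate synthase opens the cycle, isocitrate and 2-oxoglutarate dehydrogenases carry out its oxidative decarboxylations, succinyl-CoA ligase makes ATP or GTP, and fumarase and malate dehydrogenase regenerate oxaloacetate. All of these enzymes are encoded in the nucleus and imported into mitochondria. In skin epithelium, mitochondrial metabolism has been linked to keratinocyte differentiation and hair follicle growth.

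The comparisons asked whether transcripts of these enzymes differed in epithelium that lacks MOF, and in epidermis that lacks Kansl1. The libraries held from 22484018 to 27561688 counts on genes at E16.5 and from 9108709 to 19774643 at P0.5, so that before TMM scaling 1 count stood for at most 0.110 CPM. CPM are gene counts brought to 1 library size by edgeR, below with TMM factors within each experiment unless stated. The targeted genes were not a clear check on the labels. Counts over a whole gene do not separate the deleted exons, and how complete the deletion was in each library was not tested. Kat8 was at 14.4 and 14.7 CPM in the E16.5 control libraries and at 12.4 and 13.9 CPM in MOF cKO, which did not pass the test (adjusted p = 0.554, edgeR). Kansl1 was at 40.7 and 48.2 CPM in the P0.5 control libraries and at 31.4 and 30.6 CPM in Kansl1 cKO, which did not pass either (adjusted p = 0.242, edgeR). The labels name epithelial cells, and 6 keratinocyte markers, Krt14 and Krt5 among them, summed to 33275 CPM or more in every library. Of these 6, Krt1 (3.18-fold) and Krt10 (2.17-fold), keratins of differentiating layers, were called higher in MOF cKO. The summed level of 8 macrophage markers was 19.6 and 44.7 CPM in E16.5 control and 85.7 and 118 CPM in MOF cKO, and 5 of the 8 were called higher. These 5, Lyz2, Csf1r, Emr1, C1qa and C1qb, rose 20.1- to 113-fold, from 0.903 CPM or less in control. Cd68 made up most of the control sums and overlapped between the groups, at 18.1 and 41.7 CPM in control and 22.9 and 51.9 CPM in MOF cKO. The sum of 4 endothelial markers went from 5.81 and 6.28 CPM to 9.74 and 20.6 CPM, with 1, Pecam1, called higher. The summed level of 4 melanocyte markers was 416 and 449 CPM in P0.5 control and 865 and 989 CPM in Kansl1 cKO, and none was called. That of 6 fibroblast markers was 1745 and 1091 CPM in P0.5 control and 926 and 738 CPM in Kansl1 cKO, again with none called. Of these 6, Col1a1, Col1a2, Col3a1, Pdgfra and Lum were 2.46- to 5.79-fold lower in Kansl1 cKO. Dcn overlapped, at 297 and 397 CPM in control and 601 and 392 CPM in Kansl1 cKO. At E16.5 the fibroblast sum was 915 and 1549 CPM in control and 1537 and 2146 CPM in MOF cKO, with none called. There Dcn was lower in both MOF cKO libraries (411 and 404 CPM) than in control (495 and 509 CPM). The rest of the 6 were higher in both. The macrophage sum at P0.5 was 142 and 154 CPM in control and 205 and 222 CPM in Kansl1 cKO, also with none called. A pair of libraries stood apart in skeletal muscle markers, 6 of which were summed. P0.5 control replicate 1 held 253 CPM, whereas the remaining P0.5 libraries held 1.82 to 3.23 CPM. MOF cKO replicate 2 held 14.9 CPM, whereas the remaining E16.5 libraries held 1.23 to 1.46 CPM.

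Promoter sequences of 3 of the enzymes are shown because these 3 mark the spread of the results: Mdh2 rose in MOF cKO, Sucla2 was lowest among the 9 there, and Idh2 lay on opposite sides of control in the 2 knockouts. Suclg1, not shown, also lay on opposite sides, above control in MOF cKO and below it in Kansl1 cKO. Each stretch runs 5′ to 3′ on the gene's strand, from 250 bases before to 30 bases after the RefSeq start, in GRCm38.p6. Capitals mark GGGCGG (bound by Sp factors), CCAAT (bound by NF-Y) and CTCGCGAG, searched on both strands. The RefSeq starts of Mdh2, Idh2 and Sucla2 lie inside the GENCODE gene bodies given further on. The last motif was added after the Mdh2 sequence had been read.
Mdh2, chr5:135778399-135778678, plus strand: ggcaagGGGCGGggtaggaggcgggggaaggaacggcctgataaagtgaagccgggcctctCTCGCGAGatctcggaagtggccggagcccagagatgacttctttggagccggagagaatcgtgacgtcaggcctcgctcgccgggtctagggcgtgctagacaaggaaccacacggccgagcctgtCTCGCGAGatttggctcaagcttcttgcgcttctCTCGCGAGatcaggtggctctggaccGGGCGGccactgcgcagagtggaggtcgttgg
Sucla2, chr14:73552536-73552815, plus strand: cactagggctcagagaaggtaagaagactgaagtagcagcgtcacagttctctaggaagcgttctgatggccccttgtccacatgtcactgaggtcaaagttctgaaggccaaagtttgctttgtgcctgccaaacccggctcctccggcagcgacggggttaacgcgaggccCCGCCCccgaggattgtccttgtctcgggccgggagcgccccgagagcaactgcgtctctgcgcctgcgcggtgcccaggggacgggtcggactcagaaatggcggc
Idh2, chr7:80115321-80115600, minus strand: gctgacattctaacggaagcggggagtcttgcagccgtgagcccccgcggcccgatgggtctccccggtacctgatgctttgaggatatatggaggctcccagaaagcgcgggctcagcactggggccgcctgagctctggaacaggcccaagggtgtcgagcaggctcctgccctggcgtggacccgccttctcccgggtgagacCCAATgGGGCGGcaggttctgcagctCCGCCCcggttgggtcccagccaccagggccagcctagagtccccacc
The Mdh2 stretch held CTCGCGAG 3 times, with its first letter at positions -189, -62 and -28, where -1 is the base before the start, and no other enzyme's window held it. These letters were in 0.919% of the 32851 promoter windows of the RefSeq table.

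Promoter windows of 300 bases, from 250 before to 50 after the start, were on hand for 8 of the 9 enzymes, Idh3a being the exception. GGGCGG was in at least 1 window of 6 of the 8 enzymes and in 35.7% of all windows. CCAAT was in at least 1 window of 5 of the 8, namely Cs, Fh1, Idh2, Idh3b and Ogdh, and in 37.4% of all windows. Ogdh was represented by 6 windows and the others by 1 each, so Ogdh had more sequence in which a match could fall. CCGGAAG, the core of the site of ETS factors such as GABPA, was found at Idh3b alone, and in 8.86% of all windows. GCATGCGC (NRF1; 2.71% of all windows) and CAAGGTCA (estrogen-related receptors; 1.56%) were found at Ogdh alone. AAGATGGC (YY1; 2.75%) and GTTGCCAT, an stretch of the X-box read by RFX factors (1.35%), were in none of the windows of the 8 enzymes. These are letter matches only.

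In MOF cKO epithelium 1 of the 9 enzymes passed the test, the malate dehydrogenase Mdh2, which rose 1.67-fold. A gene was called when its adjusted p was 0.01 or lower and its fold change was over 1.5, by the quasi-likelihood test of edgeR with p adjusted over the 13956 genes tested (Benjamini-Hochberg). By this rule 0 of the 9 enzymes were called lower, against 9.59% of all genes tested, and 1 of 9 was called higher, against 10.0%. The direction was mixed: for 5 enzymes both MOF cKO libraries were lower than either control library, and for 4 both were higher, whereas over all genes tested 37.7% lay wholly below and 34.9% wholly above. At an unadjusted p under 0.05, 6 of the 9 differed, against 48.9% of all genes. DESeq2 also called 0 lower and 1 higher of the 9, against 12.4% and 13.0% of all genes. The median log2 fold change of the 9 was -0.22, beside -0.02 for all genes tested, whose quartiles were -0.56 and 0.47.

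**Figure D1:**
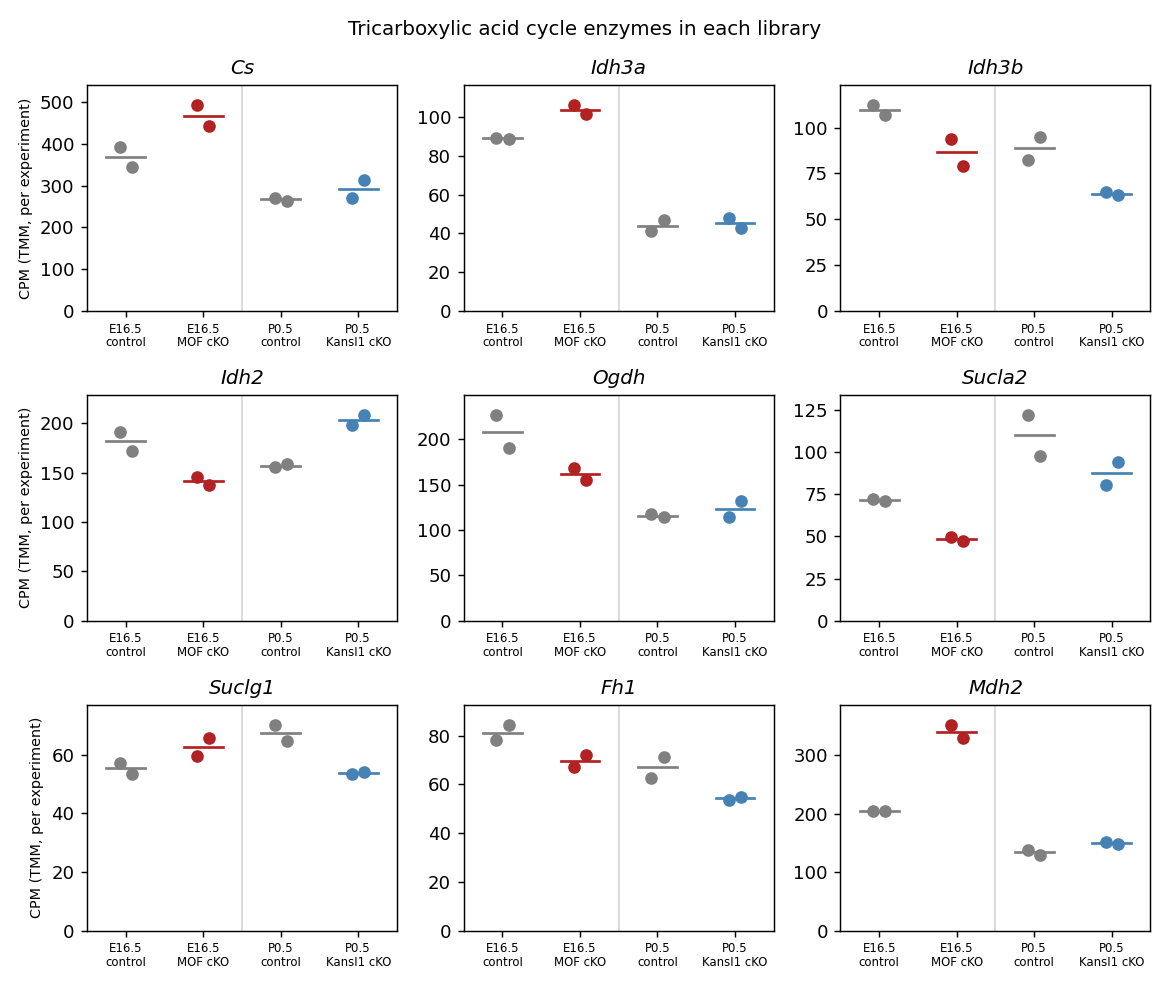
Level of each of the 9 enzymes, in CPM on a linear axis from 0, in the 8 libraries. Points are libraries and short lines are the means of 2; scaling was within each experiment, so levels are comparable within the left pair and within the right pair of each panel. Mdh2 in MOF cKO, at 351 and 329 CPM, stands above its controls at 204 and 205 CPM.

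At the entry of the cycle, citrate synthase (Cs), which condenses acetyl-CoA with oxaloacetate, was at 392 and 344 CPM in the E16.5 control libraries and at 491 and 441 CPM in MOF cKO. Both MOF cKO libraries were the higher ones, but the log2 fold change of 0.34 (standard error 0.116) did not pass (adjusted p = 0.0519, edgeR). Cs lies on the plus strand of chromosome 10 from 128337734 to 128362479 of mm10, and a small nucleolar RNA, Gm23182, is annotated within it.

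The NAD-dependent isocitrate dehydrogenase is built of alpha, beta and gamma subunits, and its alpha and beta transcripts lay on opposite sides of control. Idh3a, the catalytic alpha subunit, was at 89.3 and 88.7 CPM in control and at 106 and 101 CPM in MOF cKO. Idh3b, the beta subunit, was at 112 and 107 CPM in control and at 93.9 and 79.1 CPM in MOF cKO. The log2 fold changes were 0.22 for Idh3a (adjusted p = 0.135, edgeR) and -0.34 for Idh3b (adjusted p = 0.0632, edgeR), and neither passed. The annotated body of Idh3b, on chromosome 2 from 130279309 to 130284547, overlaps that of Nop56 on the other strand. Nop56, a nucleolar protein gene, rose from 244 and 250 CPM to 415 and 478 CPM (log2 fold change 0.85, adjusted p = 0.0015, edgeR). The strand setting of the counting is not given in the sources used here, so reads over shared bases cannot be assigned with certainty.

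Idh2, the NADP-dependent mitochondrial isocitrate dehydrogenase, supplies NADPH for antioxidant defence in the matrix. Its level was 191 and 172 CPM in the E16.5 control libraries and 145 and 137 CPM in MOF cKO. Both cKO libraries were below both controls, and the log2 fold change was -0.36 (standard error 0.106). The adjusted p of 0.0322 in edgeR did not reach 0.01, and the fold was under 1.5. Idh2 lies on the minus strand of chromosome 7 from 80094846 to 80115392.

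Ogdh, the first enzyme of the 2-oxoglutarate dehydrogenase complex, was at 226 and 190 CPM in control and at 168 and 155 CPM in MOF cKO. The libraries did not overlap, and the log2 fold change of -0.37 (standard error 0.121) had an adjusted p of 0.0470 in edgeR, short of the threshold. Ogdh spans chromosome 11 from 6291633 to 6356642 on the plus strand.

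The subunits of succinyl-CoA ligase also diverged. Sucla2, the ATP-specific beta subunit, was at 72.3 and 71.0 CPM in the E16.5 control libraries and at 49.4 and 47.3 CPM in MOF cKO. Replicates were close to each other and the groups were well apart, for a log2 fold change of -0.57 (adjusted p = 0.0071, edgeR). The fold of 1.48 lay just inside the 1.5 threshold, so Sucla2 was not called. Without any 1 of the 4 libraries its adjusted p rose to between 0.016 and 0.0239. Suclg1, the alpha subunit that pairs with either beta subunit, was at 57.1 and 53.6 CPM in control and at 59.6 and 65.6 CPM in MOF cKO, a difference of 0.18 in log2 (adjusted p = 0.268, edgeR). Sucla2 lies on chromosome 14 from 73525319 to 73596142. Suclg1 lies on chromosome 6 from 73248382 to 73276911.

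Fh1, fumarase, was at 78.2 and 84.3 CPM in control and at 67.2 and 71.8 CPM in MOF cKO. The MOF cKO libraries were lower, and the log2 fold change of -0.22 (adjusted p = 0.159, edgeR) was not called. Fh1 lies on the minus strand of chromosome 1 from 175600374 to 175625635, and the overlapping gene Kmo did not exceed 0.100 CPM in any E16.5 library.

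Mdh2, the mitochondrial malate dehydrogenase, stood apart from the other 8. It was at 204 and 205 CPM in the E16.5 control libraries and at 351 and 329 CPM in MOF cKO. The control replicates were nearly equal and both MOF cKO libraries were far above them. Its log2 fold change of 0.74 (standard error 0.100) passed at an adjusted p of 0.0017 (edgeR). The call held without each of the 4 libraries in turn, with log2 fold changes between 0.68 and 0.78. It did not hold when libraries were scaled by their total counts alone, where the log2 fold change was 0.43 and the adjusted p 0.0103. Mdh2 lies on the plus strand of chromosome 5 from 135778480 to 135790398, and its start is 95 bases from that of Styxl1 on the other strand. Styxl1 was almost silent, at 0 to 0.212 CPM in the E16.5 libraries.

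The scaling of the E16.5 libraries bears on these directions, because the TMM factors were 1.11 in both control libraries and 0.886 and 0.913 in MOF cKO. Scaling by total counts alone shifted the median of all genes to -0.32, and the call counts became 2743 lower and 769 higher, in place of 1338 and 1395. The median of the 9 enzymes then became -0.53, and 4 of 9 were called lower, against 19.7% of all genes: Idh3b, Idh2, Ogdh and Sucla2. Idh3a and Suclg1 fell to the other side of 0, at -0.085 and -0.13, and Mdh2 and Cs remained above it. Since the samples are bulk, fewer cells of a type and less RNA per cell cannot be told apart. The part that the higher macrophage, endothelial and differentiation markers play in any of these values was not tested. Nor was that of the fibroblast markers, or of the muscle markers of MOF cKO replicate 2.

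**Figure D2:**
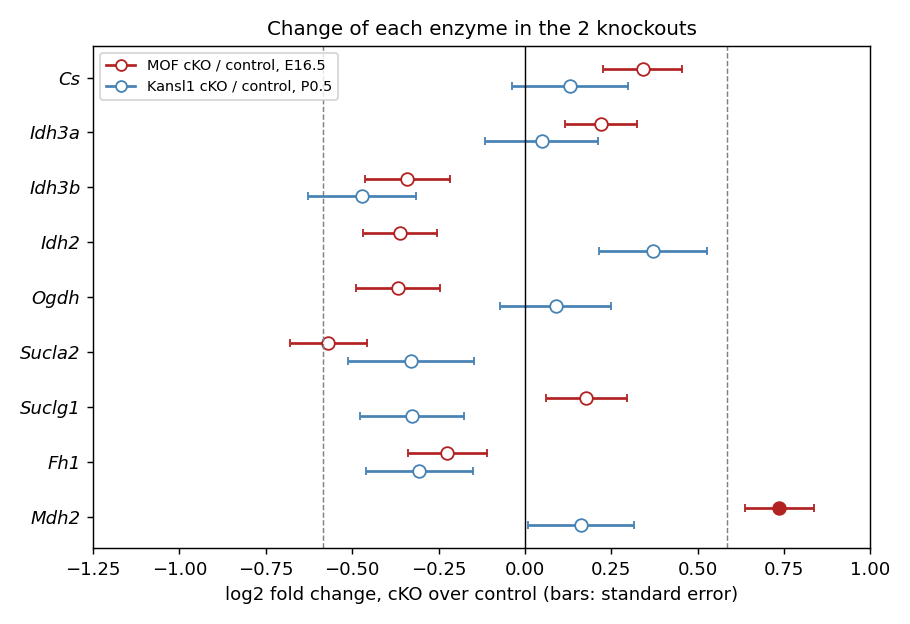
Log2 fold change of each enzyme over its own control, with its standard error as bars, for MOF cKO at E16.5 and Kansl1 cKO at P0.5. Filled points were called (adjusted p of 0.01 or lower and fold over 1.5), and dashed lines mark the fold of 1.5. Mdh2 in MOF cKO is the filled point. Idh2 lies at -0.36 for MOF cKO and 0.37 for Kansl1 cKO, and Suclg1 at 0.18 and -0.33.

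In Kansl1 cKO epidermis none of the 9 enzymes passed the test. edgeR called 0 of 9 lower and 0 of 9 higher, against 0% and 0% of the 13031 genes tested, and DESeq2 called 0 of 9 in either direction. At an unadjusted p under 0.05, edgeR gave 1 of the 9 enzymes, Idh3b, and 2045 of all genes (15.7%). DESeq2 called 66 genes lower and 35 higher among all genes. Both Kansl1 cKO libraries lay below both controls for 4 enzymes, against 22.7% of all genes, and above both for 2, against 26.0%. The median log2 fold change of the 9 was 0.05, beside 0.01 for all genes tested.

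The 4 enzymes below control were Idh3b, Sucla2, Suclg1 and Fh1. Idh3b was at 82.4 and 94.9 CPM in the P0.5 control libraries and at 64.8 and 63.2 CPM in Kansl1 cKO. This was the lowest log2 fold change of the 9, at -0.47 (standard error 0.157, adjusted p = 0.250, edgeR). Sucla2 was at 122 and 97.8 CPM in control and at 80.2 and 94.3 CPM in Kansl1 cKO. Its control libraries differed from each other by more than the nearest control and cKO libraries did. Suclg1 was at 70.1 and 64.8 CPM in control and at 53.5 and 54.0 CPM in Kansl1 cKO. Fh1 was at 62.8 and 71.3 CPM in control and at 53.8 and 54.9 CPM in Kansl1 cKO. For both, the Kansl1 cKO replicates were closer to each other than the control replicates. The log2 fold changes of Sucla2, Suclg1 and Fh1 were -0.33, -0.33 and -0.31, with adjusted p between 0.352 and 0.429 in edgeR.

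The 2 enzymes above control were Idh2 and Mdh2. Idh2 was at 155 and 159 CPM in the P0.5 control libraries and at 198 and 208 CPM in Kansl1 cKO. The replicates were close and the groups apart, yet the log2 fold change of 0.37 (standard error 0.156) did not pass (adjusted p = 0.319, edgeR). Mdh2 was at 138 and 129 CPM in control and at 152 and 147 CPM in Kansl1 cKO, 0.16 higher in log2.

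For Cs, Idh3a and Ogdh the P0.5 groups overlapped. Cs was at 271 and 263 CPM in control and at 270.3 and 314 CPM in Kansl1 cKO. Idh3a was at 41.0 and 46.7 CPM in control and at 48.1 and 42.6 CPM in Kansl1 cKO. Ogdh was at 117 and 114 CPM in control and at 114 and 132 CPM in Kansl1 cKO. Without P0.5 control replicate 1, the library with muscle markers, the log2 fold change of Idh3a went from 0.05 to -0.04. The other 8 enzymes kept their direction without that library, and none was called. The part that the muscle, melanocyte, fibroblast and macrophage markers play in these values was not tested.

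The difference between the effects was tested in 1 fit over all 8 libraries, as the MOF effect minus the Kansl1 effect. Of the 9 enzymes, 0 were called lower, against 1.17% of the 14565 genes tested, and 0 higher, against 1.76%, under the quasi-likelihood test of edgeR. At an unadjusted p under 0.05, 4 of the 9 differed, against 31.2% of all genes. DESeq2 called 0 of 9 in either direction, against 3.57% lower and 6.70% higher of all genes. Idh2 had the smallest adjusted p, 0.0213, with a difference of -0.76 (standard error 0.170): it was lower than control in MOF cKO and higher than control in Kansl1 cKO. edgeR's likelihood ratio test called Idh2, at an adjusted p of 0.0086. The difference was 0.54 for Mdh2 (adjusted p = 0.0597, edgeR), -0.49 for Ogdh (adjusted p = 0.126, edgeR) and 0.47 for Suclg1 (adjusted p = 0.111, edgeR). It was between -0.27 and 0.18 for the remaining 5. The knockouts differ in stage, in how the cells were isolated, in the gene deleted and, per the article, in the sequencing instrument, so these cannot be told apart.

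Between genes, levels were compared per kb of annotated exon, with 1 scaling over all 8 libraries. In the E16.5 control libraries Idh2 was highest, at 64.6 ± 4.28 CPM per kb (SD, n = 2), followed by Cs at 58.7 ± 5.17, whose library range overlapped that of Idh2. Mdh2 came next at 52.8 ± 0.403 CPM per kb, then Ogdh at 35.2 ± 4.11, Idh3b at 29.5 ± 0.837 and Fh1 at 22.1 ± 1.27. Sucla2 at 16.6 ± 0.135 and Idh3a at 16.2 ± 0.0054 CPM per kb were nearly level, and Suclg1 was lowest at 11.1 ± 0.439. The order depended on the length used, except that Suclg1 was lowest by both lengths. Per kb of the longest transcript Mdh2 led at 117, with Cs at 113 and Idh2 at 93.4 CPM per kb. Idh3b at 49.3 then came before Ogdh at 46.5, and Idh3a at 31.8 and Sucla2 at 29.6 before Fh1 at 28.4.

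**Figure D3:**
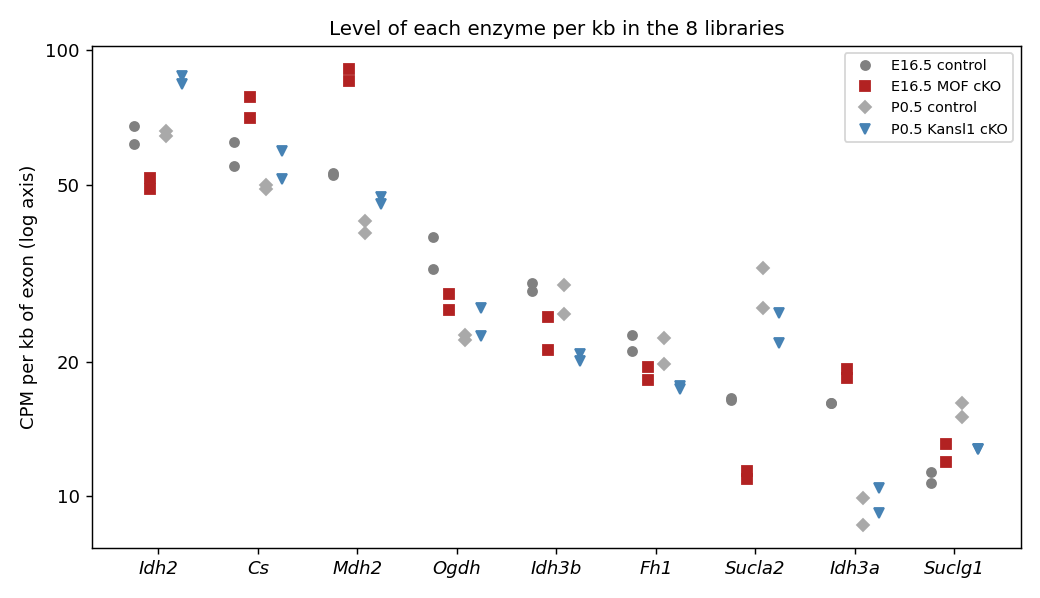
Level of each enzyme in CPM per kb of exon, on a log axis, with 1 point per library and enzymes ordered by their E16.5 control mean. Mdh2 in MOF cKO (mean 88.1 CPM per kb) is above all other enzymes of that group, and Sucla2 in MOF cKO (mean 11.2) is the lowest of it.

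In MOF cKO Mdh2 was first at 88.1 ± 4.08 CPM per kb, ahead of Cs at 74.4 ± 5.72 and Idh2 at 50.3 ± 2.08, and these did not overlap. Per kb of the longest transcript Mdh2 was first in both E16.5 groups, so that its move to first place depended on the length used. Sucla2 became the lowest at 11.2 ± 0.356, below Suclg1 at 12.5 ± 0.834, and this held for both lengths. In Kansl1 cKO Idh2 was first at 86.0 ± 2.47 CPM per kb, ahead of Cs at 55.4 ± 5.58 and Mdh2 at 46.0 ± 1.16.

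The control libraries of the 2 stages also held the enzymes in different proportions, which is given without a test because stage, isolation and sequencing run change together. Sucla2 and Suclg1, 2 of the ligase subunits, were higher at P0.5 than at E16.5 in both libraries, with ratios of the means of 1.78 and 1.42. Suclg2, a ligase subunit outside the 9, went the other way when scaled within each experiment. It was at 85.3 and 83.6 CPM in E16.5 control and at 41.4 and 47.5 CPM in P0.5 control. Idh3a (0.573), Ogdh (0.645), Mdh2 (0.761) and Cs (0.843) were lower at P0.5 in both libraries. Idh3b, Idh2 and Fh1 overlapped between the stages. Over the 9 enzymes the median log2 ratio was -0.09, beside -0.12 for 13247 genes at 1 CPM or more. These values rest on the scaling over all 8 libraries. By library size alone the ratios were 1.39 for Sucla2, 1.11 for Suclg1, 0.745 for Idh3b, 0.794 for Idh2 and 0.760 for Fh1. Those of Idh3a, Ogdh, Mdh2 and Cs then lay between 0.453 and 0.664.

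Across the 8 libraries, after centring within each experiment, the enzymes showed no shared pattern. Pearson's r between pairs ranged from -0.90 to 0.86, with a median of -0.14, and was above 0 in 17 of 36 pairs. The points share depth and scaling within a library, and r is given as a description. Mdh2 had the lowest r with the mean of the other 8 enzymes, at -0.81. The genes outside the lists most like the mean of the 9 were Chchd5 (r = 0.99), Bloc1s6 (r = 0.97) and Fdx1 (r = 0.97) among 10689 genes ranked, although that mean moved little, by at most 0.063 on the log2 scale in any library.

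Among the 11 other enzymes of the cycle, 1 was called lower in MOF cKO and 0 higher, beside 9.59% and 10.0% of all genes tested. Mrps36, named for the mitochondrial ribosome and known also as a subunit that anchors the 2-oxoglutarate dehydrogenase complex, was at 17.1 and 17.7 CPM in control and at 8.78 and 7.07 CPM in MOF cKO. It fell by 1.13 on the log2 scale (standard error 0.202, adjusted p = 0.0048, edgeR), though without MOF cKO replicate 2 the adjusted p was 0.0107. The values of 2 more, which did not pass, were the next lowest reported here: Suclg2, the GTP-specific ligase subunit, at -0.51 (adjusted p = 0.0112, edgeR), and Ogdhl, a tissue-restricted relative of Ogdh, at -0.73 (adjusted p = 0.0334, edgeR). Both were called by library size alone, as was Sdhc (-0.60, adjusted p = 0.0041, edgeR), where 19.7% of all genes were called lower. Ogdhl was called also with every gene kept that had at least 1 count, at an adjusted p of 0.05 and with the replicate block (-0.75, adjusted p = 0.00049, edgeR). The succinate dehydrogenase subunits Sdha, Sdhb, Sdhc and Sdhd were at log2 fold changes of -0.16, -0.16, -0.30 and 0.21, and Dlst, Dld and Idh3g at 0.29, -0.15 and 0.02. The median of the 11 was -0.16. In Kansl1 cKO none of the 11 was called by edgeR, which called 0% of all genes tested. DESeq2 also called none of them, against 0.506% lower and 0.269% higher of all genes. In edgeR 2 of the 11 had an unadjusted p under 0.05, against 15.7% of all genes. The lowest value was -1.42 for Ogdhl (adjusted p = 0.204, edgeR).

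The further lists hold genes that feed, support or regulate the cycle, and their counts in MOF cKO stand beside 9.59% called lower and 10.0% called higher of all genes tested. No test of a list was run. Of 13 genes of pyruvate entry, 3 were called lower and 0 higher: Pdk2 and Pdk3, kinases that switch off pyruvate dehydrogenase, and Pdhx, a structural subunit of that complex. Pdk2 was at 11.7 and 9.39 CPM in control and at 3.01 and 2.20 CPM in MOF cKO, a change of -2.02 in log2 (standard error 0.309, adjusted p = 0.0027, edgeR). Pdhx fell by 1.23 and Pdk3 by 0.86 on the log2 scale. Pdk3 was not called without control replicate 2 or without MOF cKO replicate 2 (adjusted p up to 0.0199, edgeR), or in 1 fit over all 8 libraries (adjusted p = 0.0637, edgeR). The median of this list was -0.34.

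Of 13 anaplerotic genes, which supply cycle intermediates from other sources, 2 were called lower and 0 higher. Pcca, the alpha subunit of propionyl-CoA carboxylase on the route from propionyl-CoA to succinyl-CoA, was at 12.1 and 13.1 CPM in control and at 1.20 and 0.805 CPM in MOF cKO. It fell by 3.65 on the log2 scale (standard error 0.329, adjusted p = 0.00054, edgeR), on 24 and 19 counts in the MOF cKO libraries. Pck2, the mitochondrial phosphoenolpyruvate carboxykinase, fell by 0.80 on the log2 scale, a call lost without MOF cKO replicate 2 (adjusted p = 0.0124, edgeR). The median of the list was -0.36.

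Of 11 genes for cytosolic counterparts, carriers and citrate use, 3 were called lower and 0 higher. Slc25a12, an aspartate-glutamate carrier of the malate-aspartate shuttle, went from 13.5 and 12.0 CPM to 4.32 and 3.39 CPM, or -1.73 in log2 (standard error 0.258, adjusted p = 0.0024, edgeR). Idh1, the cytosolic isocitrate dehydrogenase, and Aco1, the cytosolic aconitase, fell by 0.62 and 0.59. With 1 library left out, Aco1 was called in none of the 4 fits and Idh1 only in that without control replicate 1. Aco1 was also not called by DESeq2, with DESeq2 size factors or in 1 fit over all 8 libraries. The median of the list was -0.26.

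Of 9 genes for lipoylation and succinate dehydrogenase assembly, 1 was called lower in MOF cKO and 0 higher. Lias makes the lipoyl group that the pyruvate and 2-oxoglutarate dehydrogenase complexes carry, and it fell from 31.9 and 29.5 CPM to 15.7 and 14.4 CPM (log2 fold change -1.03, standard error 0.151, adjusted p = 0.0023, edgeR). The median of the list was -0.35. Of 10 upstream regulators tested (Esrrg did not pass the filter on low counts), 0 were called lower and 3 higher: Myc by 1.15, Esrra by 1.12 and Hif1a by 0.82 on the log2 scale, with a list median of 0.56. Hif1a was not called without MOF cKO replicate 1 (adjusted p = 0.0113, edgeR), by library size alone (0.52, adjusted p = 0.0185, edgeR) or in 1 fit over all 8 libraries (adjusted p = 0.0834, edgeR). Esrra, a nuclear receptor for genes of oxidative metabolism, was at 35.8 and 41.6 CPM in control and at 76.3 and 91.4 CPM in MOF cKO. DESeq2 gave the same counts for pyruvate entry and lipoylation, replaced Aco1 by Me1 among the carriers and cytosolic enzymes, and called Me2 lower and Ppargc1b higher in addition.

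In Kansl1 cKO 0 genes of these 5 lists were called by edgeR, which called 0% of all genes tested. Between 0 and 4 per list had an unadjusted p under 0.05, against 15.7% of all genes. DESeq2 and edgeR's likelihood ratio test called Slc25a12, the carrier that also fell in MOF cKO, lower. Of all genes, DESeq2 called 0.506% lower and the likelihood ratio test 0.875%. Slc25a12 was at 20.9 and 17.6 CPM in the P0.5 control libraries and at 4.89 and 8.93 CPM in Kansl1 cKO. Both Kansl1 cKO libraries were well below both controls, with a difference of -1.49 in log2 (adjusted p = 0.185, edgeR). The other lists held no call by DESeq2 in Kansl1 cKO.

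**Figure D4:**
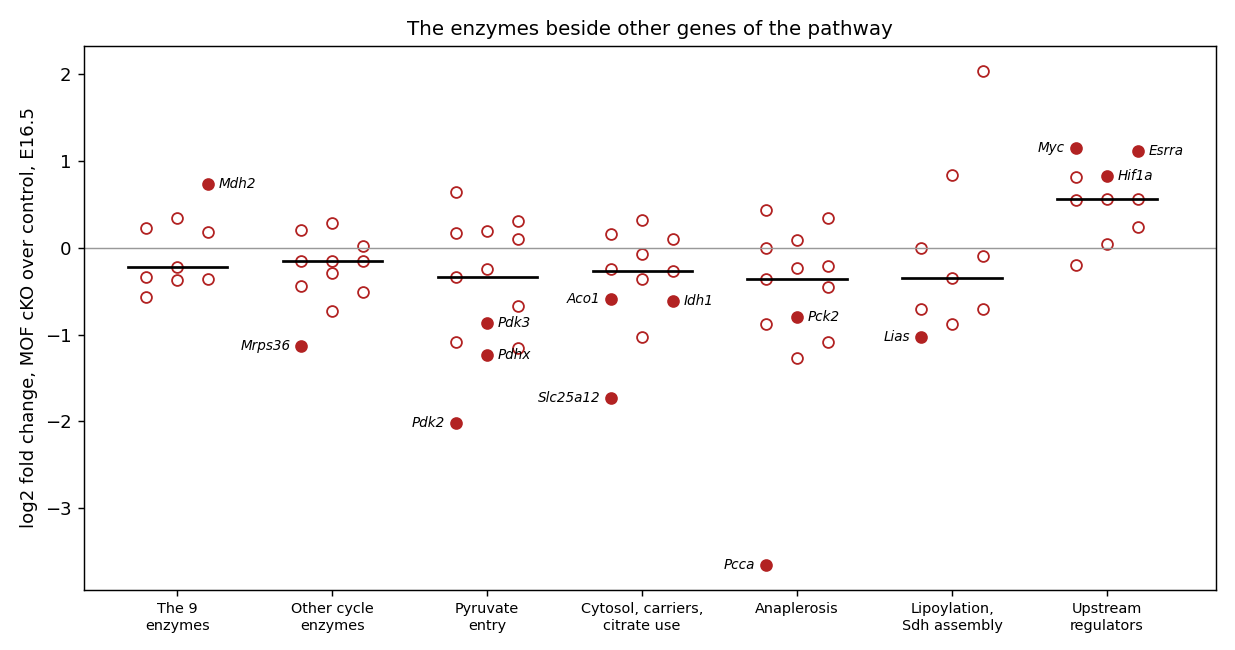
Log2 fold change in MOF cKO at E16.5 of the 9 enzymes and of 6 lists of related genes, 1 point per gene tested. Filled points were called and are named, and black lines are medians; the medians of the first 6 columns lie between -0.36 and -0.16 and that of the upstream regulators at 0.56.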

How the data were processed

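Polyadenylated RNA of 8 libraries was sequenced as paired reads after directional library preparation. Per the article's methods the authors aligned reads to mm10 with HISAT2 and counted them per gene with HTSeq-count, whereas the submitters' processing notes name TopHat2 and HTSeq. The annotation and strand setting of the counting are not given in the sources used here. The deposited values are raw read counts per gene symbol, without normalization. Entries that name no gene, 21.1% to 26.0% of reads, were left out.

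In edgeR 4.0.16 (R 4.3.3), filterByExpr removed low genes, TMM factors set library sizes and the quasi-likelihood test was run on each experiment alone, with Benjamini-Hochberg adjustment over all genes tested. Calls needed an adjusted p up to 0.01 and a fold over 1.5. DESeq2 1.42.0 and other settings were alternatives. The fit was tested on simulated data. Of the symbols, 92.8% matched 1 GENCODE M21 gene, which gave positions and exon lengths. Promoters came from RefSeq. The 9 enzymes and the lists were chosen with earlier results of these data known. Named were the 9 enzymes, the other cycle enzymes, called genes of each further list (at most 5), Kat8, Kansl1 and the 3 genes most like the enzymes' mean. Results of 2 further genes are not reported here. Genes named for overlapping or adjoining an enzyme were added for their position. With 2 libraries per group, the spread is poorly known for any single gene.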

Additional observations from a re-analysis of the deposited data

Results flagged for a closer look

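Genes around the cycle gave 2 results flagged for a difference between the effects of the knockouts, tested as the MOF effect minus the Kansl1 effect over all 8 libraries with edgeR's quasi-likelihood test. For Pdk2 the difference was -2.17 on the log2 scale (standard error 0.364, adjusted p = 0.0085, edgeR): its log2 fold change was -2.02 in MOF cKO and 0.13 in Kansl1 cKO. For Idh1 the difference was -1.17 (standard error 0.201, adjusted p = 0.0089, edgeR), from -0.62 in MOF cKO and 0.53 in Kansl1 cKO. The Pdk2 call was lost without each of the 8 libraries in turn, with adjusted p between 0.0141 and 0.0317 in edgeR. The Idh1 call was lost in 7 of 8 such fits, with adjusted p between 0.0071 and 0.0541, and held without P0.5 control replicate 2. Upper-quartile factors (adjusted p = 0.01003, edgeR) and DESeq2 size factors (adjusted p = 0.0108, edgeR) also ended the Idh1 call. Single libraries were not tested for standing apart within their group, since each group held 2.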

How the results depend on the processing

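With 2 libraries per group, precision rests on few values, and a fit without 1 library assumes that the lone library varies like the others. The call of Mdh2 in MOF cKO held under each alternative run except scaling by library size alone, where 0 enzymes were called higher and 4 lower, the median of the 9 was -0.53, and Idh3a (-0.085), Suclg1 (-0.13), Idh3g (-0.28), Dlst (-0.015) and Sdhd (-0.099) turned negative. With upper-quartile factors 1 enzyme (Sucla2) was called lower, the median was -0.29 and Idh3g was at -0.044. With no fold threshold 1 enzyme was called lower. Without 1 library at a time, the median in MOF cKO ranged from -0.24 to -0.17 and Idh3g from -0.075 to 0.11. In Kansl1 cKO the median, which is Idh3a, was -0.0035 by library size and -0.0024 by upper quartile, and ranged from -0.079 to 0.036 without 1 library at a time, Idh3a from -0.079 to 0.14 and Ogdh from -0.020 to 0.16. For the difference between effects, library size alone put Cs at -0.040, Idh3a at -0.082, Idh3b at -0.12 and Fh1 at -0.17, and without 1 library Idh3b ranged from -0.033 to 0.36 and Fh1 from -0.063 to 0.25. The likelihood ratio test and an adjusted p of 0.05 each called 1 enzyme lower there (Idh2). Idh2 remained uncalled under the other alternatives. Total-count and upper-quartile scaling move all fold changes of a comparison by a common amount, and the cause of the other changes was not tested.

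No label says whether the replicate numbers mark litters, and they were not used as pairs in the main fits. The article describes pairs of samples in each experiment, with littermate controls. Deviations of same-numbered libraries correlated at 0.32 at E16.5 and -0.44 at P0.5. With the replicate block, 1 enzyme was called higher and 0 lower in MOF cKO, and 0 in the other comparisons. Calls among all genes in MOF cKO went from 1338 and 1395 to 2263 and 1903. Sucla2, Ogdh, Idh2 and Idh3b, below control, and Cs, above it, then had adjusted p between 1.7e-05 and 0.0027 in edgeR. Their folds under 1.5 kept them uncalled. The block ended the calls of Pdk2 (adjusted p = 0.0171, edgeR) and Idh1 (adjusted p = 0.0169, edgeR) for the difference and added that of Ogdhl in MOF cKO (-0.75, adjusted p = 0.00049, edgeR). Without MOF cKO replicate 2 the calls of Mrps36, Pck2, Pdk3, Idh1 and Aco1 in MOF cKO were lost.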
